A study of Arabidopsis thaliana with 17 samples.

Results

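Cells from the differentiated zone of Arabidopsis thaliana roots were bioprinted, that is, mixed into a printable material and laid down as a construct, and their RNA was sequenced after 3 days in the construct and on the day of printing. The ratio of day 3 over day 0 was taken from the pooled FPKM of each group (mapped fragments scaled by transcript length and library total, 1 value per gene and group, made by the authors), for the 18372 of 33201 table entries with an FPKM of 1 or more at day 3 or day 0. Day 3 is the group of bioprinted differentiated constructs kept for 3 days, with 2 libraries. Day 0 is the same kind of construct on the first day, with 3 libraries. All 17 libraries of the series, in 6 groups, came from plants of the genotype pSCR:SCR-mCherry, a fusion of SCARECROW to a red fluorescent protein driven by the SCARECROW promoter, so both groups carry it. The series text speaks of 3 independent experiments, and the labels do not say which day 3 and day 0 libraries came from the same one. Isolated cells of the same tissue and constructs at day 1, each with 3 libraries, are given as levels for context. A pooled value carries no spread between libraries, so no error or n can be set beside it. A gene is said here to have risen, fallen or passed the test where the q (a p-value adjusted for many tests) for day 3 against day 0 in the authors' deposited table was under 0.05. Ratios are written as log2 of day 3 over day 0, so 1 means 2-fold higher at day 3 and -1 means 2-fold lower.

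The differentiated zone of a root holds mature cell types in rings: root hair and non-hair epidermis, cortex, endodermis, and the vascular cylinder with xylem and phloem. The endodermis first builds the Casparian strip, a lignin band that seals the spaces between cells, and later coats its surface with suberin, a waxy polyester. Plant cells freed from their neighbours can lose such identities, re-enter the cell cycle and form callus, and wounding, heat and osmotic stress each switch on well known groups of genes through jasmonate, heat shock factors and abscisic acid.

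By day 3, 7761 of 18372 genes had passed the test, which is 42.2% of those tested. Of these, 3867 were higher at day 3 (21.0%) and 3894 were lower (21.2%). Among genes with a level above 0 in both groups, changes of 16-fold or more were found for 195 that rose and 428 that fell. Over all tested genes with a level above 0 in both groups, the median log2 ratio was 0.05, with quartiles of -1.03 and 1.07. The pooled columns summed to 741440 FPKM at day 3 and 927340 FPKM at day 0. Rescaling both to an equal sum (TPM) therefore added 0.32 to each log2 ratio. Before it, genes at least 2-fold apart, those listed at 0 at day 3 or day 0 included, were 4849 higher and 4909 lower (49.7% higher). The rescaling turned these counts into 6137 higher and 4045 lower (60.3% higher). A list median less than 0.32 below 0 changes sign under the rescaling. The smallest q in the authors' deposited table, 0.000551, was shared by 3351 of the tested genes.

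**Figure D1:**
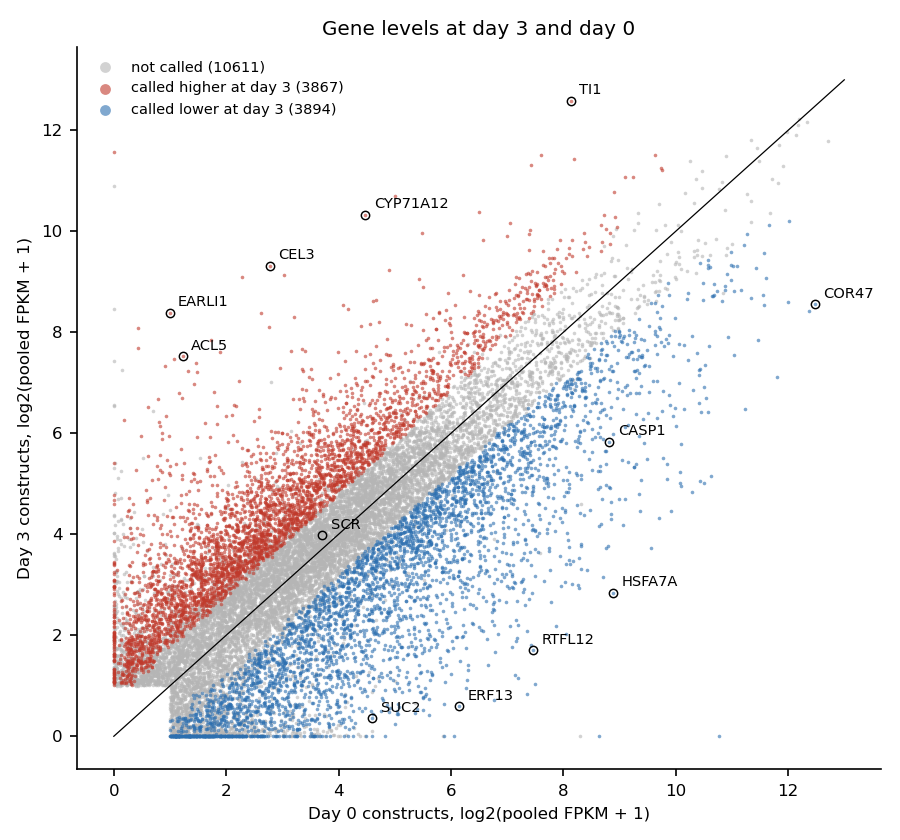
Each point is 1 of the tested genes, with its level in day 0 constructs on the x axis and in day 3 constructs on the y axis, both as log2(pooled FPKM + 1), and the diagonal marks equal levels. Red points are the 3867 genes called higher at day 3, blue points the 3894 called lower and grey points the genes that did not pass, and circles mark named genes, with SCR close to the diagonal and EARLI1 and COR47 far from it.

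Among genes that passed, have a symbol and reach 10 FPKM in the higher group, the steepest rise was that of EARLI1, which encodes a small proline-rich protein of the lipid-transfer type: it had 334 FPKM at day 3 and 0.989 at day 0 (log2 ratio 8.40). GASA5, a gibberellin-regulated peptide, had 159.5 FPKM at day 3 and 0.889 at day 0. JAL22, a jacalin-related lectin, had 545 FPKM at day 3 and 3.84 at day 0, and CEL3, a cellulase, had 638 FPKM at day 3 and 5.87 at day 0. ACL5, which makes thermospermine, a polyamine known from xylem development, had 184 FPKM at day 3 and 1.34 at day 0, and LOG3, which releases active cytokinin, had 166 FPKM at day 3 and 1.74 at day 0. All 6 were under 6 FPKM on day 0 and above 150 FPKM by day 3. NDB4, an external NAD(P)H dehydrogenase of mitochondria, had 60.5 FPKM at day 3 and 0.394 at day 0. OSM34, an osmotin, had 229 FPKM at day 3 and 2.32 at day 0. HK1, a histidine kinase, had 14.4 FPKM at day 3 and 0.133 at day 0, PRP4, a proline-rich wall protein, 21.2 FPKM at day 3 and 0.200 at day 0, and MAKR4, a membrane-associated kinase regulator, 20.9 FPKM at day 3 and 0.195 at day 0. PRP4 stood at 0.0866 FPKM on day 1 and MAKR4 at 23.0 FPKM, so PRP4 was then still below its day 0 level and MAKR4 already above its day 3 level. Among genes that passed and have no symbol, chosen after the values were seen, the largest ratios above a day 0 level of 0 were those of AT3G27400, a pectin lyase-like protein with 270.5 FPKM at day 3 and 0.341 at day 0, and AT1G26390, an FAD-binding berberine family enzyme with 205 FPKM at day 3 and 0.346 at day 0.

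At the other end, HSFA7A, a heat shock transcription factor, had 6.19 FPKM at day 3 and 471 at day 0 (log2 ratio -6.25), and ERF13, an ethylene response factor, had 0.513 FPKM at day 3 and 69.9 at day 0. FAMT, a farnesoic acid methyltransferase, had 3.04 FPKM at day 3 and 265 at day 0, and RTFL12, a small ROTUNDIFOLIA-like peptide, 2.25 FPKM at day 3 and 175 at day 0. LTP5, a lipid transfer protein, had 0.927 FPKM at day 3 and 76.1 at day 0, and CYCP3;2, a P-type cyclin, 0.446 FPKM at day 3 and 41.4 at day 0. All 6 had been above 40 FPKM on day 0 and were under 7 FPKM at day 3. TAA1, which makes the precursor of auxin from tryptophan, had 0.131 FPKM at day 3 and 18.16 at day 0, and SUC2, the sucrose loader of phloem companion cells, had 0.277 FPKM at day 3 and 23.3 at day 0. RHS19, named for root hair specificity, had 0.190 FPKM at day 3 and 30.9 at day 0 (log2 ratio -7.35). PUB19, a U-box protein, had 0.0492 FPKM at day 3 and 10.4 at day 0, the SKU5-like gene sks16 0.0998 FPKM at day 3 and 10.3 at day 0, and ERF8 0.199 FPKM at day 3 and 15.4 at day 0. The 12 genes were lower again at day 3 than at day 1, where for example HSFA7A had 38.6 FPKM and FAMT 14.1 FPKM.

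Some genes were listed at exactly 0 in 1 of the groups, where no ratio can be given. At 0 on day 0 were 128 tested genes, of which 96 passed. The most abundant at day 3 were the chloroplast-genome entry ATCG00230 with 3024 FPKM, PDF2.1, a defensin-like peptide, with 41.4 FPKM, AT3G25719 with 26.6 FPKM and AT3G29970, a B12D protein, with 24.7 FPKM. At 0 on day 3 were 360 genes, of which 293 passed. They were led by the small nucleolar RNAs AT2G35387 with 1743, AT3G21805 with 394 and AT4G39361 with 65.7 FPKM on day 0, and by CLE1, a signal peptide gene, with 57.6 FPKM. ATCG00230 was also listed at 0 at day 1 and in isolated cells. An exact 0 in such values can be a failed estimate, so these entries are given by their levels alone.

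Genes known from the 2 barriers of the endodermis differed in direction, Casparian strip genes being lower at day 3 and suberin genes higher. SCR itself, the transcription factor of the endodermis whose promoter and coding sequence the transgene shares, had 14.8 FPKM at day 3 and 12.1 at day 0 and did not pass. Of the 9 Casparian strip genes, all tested, 0 rose and 8 fell, with a median log2 ratio of -2.48. CASP1, a membrane scaffold protein of the strip, had 56.0 FPKM at day 3 and 451 at day 0, and CASP2 had 19.9 FPKM at day 3 and 129 at day 0. PER64, a peroxidase that helps polymerise its lignin, had 15.6 FPKM at day 3 and 109 at day 0. ESB1, a dirigent-like protein of the strip, had 40.1 FPKM at day 3 and 224 at day 0. MYB36, the regulator that switches these genes on, had 2.398 FPKM at day 3 and 36.5 at day 0 (log2 ratio -3.93). GSO1, the receptor that monitors the strip, had 4.22 FPKM at day 3 and 13.3 at day 0 and did not pass. All 9 members were lower at day 3, and their summed level was 198 FPKM at day 3 against 1187 FPKM at day 0. In a bulk sample, fewer cells of a type and less RNA per cell cannot be told apart, here and for every cell type below.

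Suberin genes went the other way: of 15 tested members of a list of 17, 11 rose and none fell, with a median log2 ratio of 4.46 over those with a ratio. CYP86A1, which hydroxylates the fatty acids of suberin, had 25.3 FPKM at day 3 and 0.210 at day 0 (log2 ratio 6.91), and its partner for longer chains, CYP86B1, had 14.4 FPKM at day 3 and 0.181 at day 0. GPAT5, the acyltransferase that joins them to glycerol, had 14.1 FPKM at day 3 and 0.260 at day 0, and GPAT7 had 12.1 FPKM at day 3 and 0.538 at day 0. ASFT, which adds ferulate, had 59.9 FPKM at day 3 and 2.29 at day 0, the highest level of the list. These enzymes were under 3 FPKM on day 0 and between 12 and 60 by day 3. FAR1, a fatty alcohol-forming reductase, was listed at 0 on day 0 and had 6.76 FPKM at day 3. The exporters ABCG6 and ABCG20 had 14.3 FPKM at day 3 and 1.88 at day 0 (ABCG6) and 19.4 FPKM at day 3 and 1.33 at day 0 (ABCG20). Of the regulators, MYB92 had 5.99 FPKM at day 3 and 1.87 at day 0, MYB93 had 5.13 FPKM at day 3 and 0.556 at day 0, and MYB41 stayed under 1 FPKM in both groups. FAR4 with 18.4 FPKM at day 3 and 0.0869 at day 0, ABCG2 with 15.2 FPKM at day 3 and 1.12e-05 at day 0 and KCS2 with 21.4 FPKM at day 3 and 0.991 at day 0 had large ratios but did not pass the authors' test. The suberin genes summed to 277 FPKM at day 3 against 35.7 FPKM at day 0, and isolated cells stood at 43.5 FPKM.

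In the list of 8 genes made of SCR, SHR and related factors, SHR, the mobile partner of SCR that comes from the stele, rose, with 12.2 FPKM at day 3 and 3.64 at day 0. NUC, a zinc finger protein of the BIRD family, fell, with 1.26 FPKM at day 3 and 3.67 at day 0. The other 6, SCR included, did not pass, among them JKD with 3.44 FPKM at day 3 and 6.40 at day 0 and SCL3 with 10.1 FPKM at day 3 and 11.4 at day 0. A rise in 1 of 8 and a fall in 1 of 8 are both below the 21.0% and 21.2% of all genes.

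**Figure D2:**
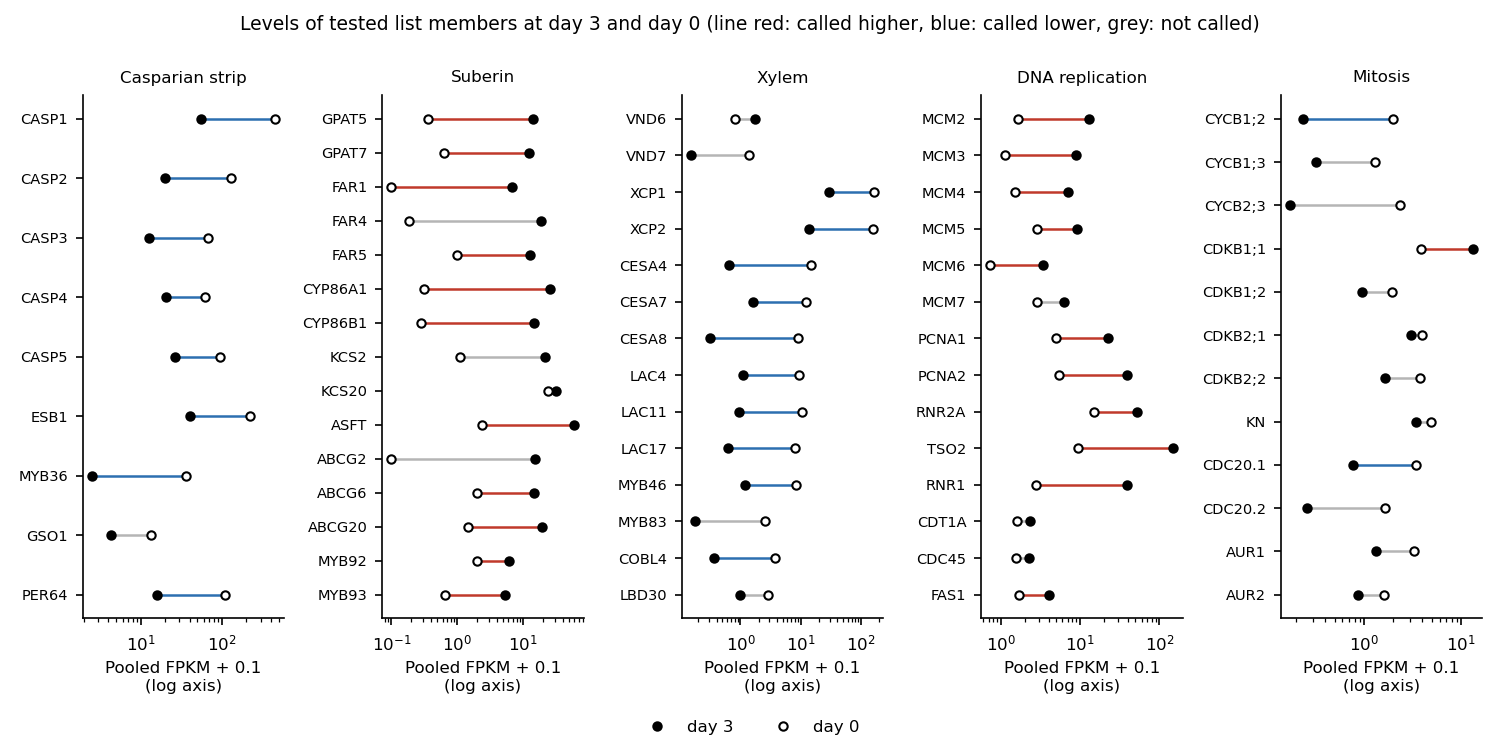
For 5 gene lists, each row is a tested gene and each x axis its pooled FPKM + 0.1 on a log scale, with filled circles for day 3 and open circles for day 0. Casparian strip and xylem genes with a blue line fell, suberin and DNA replication genes with a red line rose, and in the mitosis panel CDKB1;1 is the red line with 13.1 FPKM at day 3 and 3.74 at day 0.

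Most tested root hair and xylem genes fell. None of the 12 tested root hair genes rose and 9 fell, with a median log2 ratio of -2.57. RHS13 had 1.88 FPKM at day 3 and 34.5 at day 0, PRP3, a proline-rich hair wall protein, had 1.52 FPKM at day 3 and 23.9 at day 0, and LRX1, an extensin of growing hairs, had 1.52 FPKM at day 3 and 11.5 at day 0. RHD2, the NADPH oxidase that drives hair growth, had 7.56 FPKM at day 3 and 49.6 at day 0. The hair regulators RHD6, with 15.4 FPKM at day 3 and 19.4 at day 0, and RSL4, with 10.4 FPKM at day 3 and 17.58 at day 0, did not pass. Of 6 tested epidermal patterning genes none rose and 3 fell: CPC, a mobile hair-fate factor, with 9.21 FPKM at day 3 and 32.3 at day 0, MYB23 with 1.26 FPKM at day 3 and 6.08 at day 0, and WER, the factor of non-hair fate, with 0.258 FPKM at day 3 and 4.73 at day 0.

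In the vascular lists, 10 of 14 xylem genes fell and none rose (median log2 ratio -3.56). The secondary wall cellulose synthases CESA4 and CESA8 had 0.552 FPKM at day 3 and 14.5 at day 0 (CESA4) and 0.213 FPKM at day 3 and 8.95 at day 0 (CESA8). LAC11 and LAC17, laccases that polymerise lignin, had 0.841 FPKM at day 3 and 10.3 at day 0 (LAC11) and 0.513 FPKM at day 3 and 7.83 at day 0 (LAC17), and XCP2, a protease of dying vessels, had 13.8 FPKM at day 3 and 158 at day 0. The master switch VND7 was at 0.0495 FPKM at day 3 and 1.29 at day 0 and did not pass. Of the phloem list, 5 of 12 members reached the level needed for a test, and the rest were under 1 FPKM in both groups. SUC2 and APL, a phloem identity factor with 0.400 FPKM at day 3 and 4.79 at day 0, fell. OPS, a protein of developing protophloem, rose, with 53.9 FPKM at day 3 and 15.4 at day 0. The phloem list summed to 64.5 FPKM at day 3 against 54.7 FPKM at day 0. Of 8 genes of developmental cell death, 5 fell and none rose, including the ribonuclease RNS3 with 5.75 FPKM at day 3 and 22.3 at day 0 and the metacaspase MC9 with 4.42 FPKM at day 3 and 13.9 at day 0.

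In the root cap list, 4 of 6 tested genes fell and 1 rose. The cap maturation factors BRN1 and BRN2 had 2.00 FPKM at day 3 and 21.3 at day 0 (BRN1) and 0.987 FPKM at day 3 and 6.85 at day 0 (BRN2). CEL5, a cellulase of shedding cap cells, had 4.33 FPKM at day 3 and 15.9 at day 0, and AT1G65570 had 6.25 FPKM at day 3 and 71.9 at day 0. SMB, their upstream factor, had 3.29 FPKM at day 3 and 5.22 at day 0 and did not pass. CEL3, the member that rose, reached 638 FPKM and held nearly all of the list's 655 FPKM at day 3, so it moved against the other cap genes. Markers of shoot tissue were low: of 26 nuclear photosynthesis genes 15 were tested and 14 of these did not pass, and the list summed to 18.0 FPKM at day 3 against 66.3 FPKM at day 0. LHCA4, a light-harvesting protein, fell, with 0.894 FPKM at day 3 and 23.5 at day 0. The 6 seed and embryo genes, storage proteins and LEC1 among them, were all under 1 FPKM and none was tested.

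Among stem cell niche and lateral root genes, few passed, at shares close to the 21.0% and 21.2% of all genes. Of 11 tested niche genes 2 rose and 3 fell, with a median log2 ratio of -0.17 that turned to 0.15 after rescaling to TPM. WOX11, a homeobox factor of new root founder cells, had 32.4 FPKM at day 3 and 1.59 at day 0 (log2 ratio 4.35), and PLT7, a PLETHORA factor of lateral root founders, had 3.72 FPKM at day 3 and 0.118 at day 0. WOX5, the marker of the quiescent centre, had 2.26 FPKM at day 3 and 21.2 at day 0 (log2 ratio -3.23), and PLT2, a factor of the root meristem, had 0.223 FPKM at day 3 and 2.33 at day 0. WOX13, a homeobox factor of callus and grafts, had 8.87 FPKM at day 3 and 30.6 at day 0. Of WOX11 and WOX5, WOX11 was thus the higher in FPKM at day 3 and WOX5 the higher at day 0. Of 8 lateral root and pericycle genes 1 rose and 2 fell. LBD29, a lateral root initiation factor, rose, with 11.9 FPKM at day 3 and 1.44 at day 0. LBD16, its relative, fell, with 9.08 FPKM at day 3 and 35.5 at day 0, and LBD18, with 8.33 FPKM at day 3 and 4.103 at day 0, did not pass. PHO1, a phosphate exporter of the pericycle, fell, with 0.695 FPKM at day 3 and 6.95 at day 0.

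Of 13 tested regeneration genes, 6 fell and 1 rose. RAP2.6, an ethylene response factor of wounded tissue, had 12.3 FPKM at day 3 and 754 at day 0 (log2 ratio -5.94), and RRTF1, a redox and wound responsive factor, had 3.57 FPKM at day 3 and 131 at day 0. ERF115, which drives division next to dead cells, had 63.3 FPKM at day 3 and 150.4 at day 0, and WIND1, a factor of wound-induced callus, had 99.8 FPKM at day 3 and 231 at day 0. The one that rose was AT1G36060, an AP2-type factor, with 31.1 FPKM at day 3 and 11.2 at day 0. ESR1, known from shoot regeneration, had 27.1 FPKM at day 3 and 0.00851 at day 0 and did not pass, and ESR2 was listed at 0 in both groups.

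Genes of DNA synthesis rose while most genes of mitosis did not pass. Of 14 tested DNA replication genes, 11 rose and none fell (median log2 ratio 2.26). TSO2 and RNR1, subunits of the ribonucleotide reductase that makes DNA precursors, had 150.2 FPKM at day 3 and 9.32 at day 0 (TSO2) and 39.4 FPKM at day 3 and 2.68 at day 0 (RNR1). The helicase subunits MCM2 and MCM3 had 12.7 FPKM at day 3 and 1.56 at day 0 (MCM2) and 8.67 FPKM at day 3 and 1.02 at day 0 (MCM3), and PCNA2, a sliding clamp of the polymerase, had 39.5 FPKM at day 3 and 5.26 at day 0. CDT1A and CDC45, which load and fire replication origins, did not pass, with 2.23 FPKM at day 3 and 1.52 at day 0 for CDT1A, and CDC6 was under 1 FPKM in both groups. Of 12 tested mitosis genes, 1 rose and 2 fell, both shares below those of all genes. Whether they passed or not, 11 of the 12 had a lower level at day 3 (median log2 ratio -1.31). The cyclin CYCB1;2 had 0.138 FPKM at day 3 and 1.91 at day 0 and the activator CDC20.1 0.666 FPKM at day 3 and 3.32 at day 0. KN, the syntaxin of the cell plate, had 3.33 FPKM at day 3 and 4.79 at day 0 and did not pass. CDKB1;1, a kinase active from S phase on, was the member that rose. The mitosis list summed to 27.9 FPKM at day 3, 37.5 FPKM at day 0 and 40.9 FPKM in isolated cells.

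Of 19 tested genes of the G1 phase and its inhibitors, 16 did not pass. A rise in 2 and a fall in 1 are both shares below the 21.0% and 21.2% of all genes. CYCD2;1, a D-type cyclin, rose with 18.7 FPKM at day 3 and 7.33 at day 0. KRP3, an inhibitor of cyclin-dependent kinases, rose with 11.7 FPKM at day 3 and 1.65 at day 0, while its relative KRP2 fell with 4.35 FPKM at day 3 and 9.64 at day 0.

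Genes of ribosomes and their assembly mostly rose. Of 13 tested ribosome biogenesis genes, 12 rose and none fell (median log2 ratio 2.44). NUC-L1 and NUC-L2, the nucleolins that organise ribosomal RNA genes, had 333 FPKM at day 3 and 54.4 at day 0 (NUC-L1) and 49.6 FPKM at day 3 and 4.22 at day 0 (NUC-L2). FIB2, a fibrillarin that methylates ribosomal RNA, had 167 FPKM at day 3 and 23.5 at day 0. HDA3, a nucleolar histone deacetylase, had 196 FPKM at day 3 and 18.9 at day 0, and APUM24, an RNA-binding protein of the nucleolus, had 54.5 FPKM at day 3 and 7.003 at day 0. Of 310 genes whose reference name holds the words ribosomal protein, 222 rose and 8 fell. Their share of all FPKM was 2.78% on day 0, 4.30% on day 1 and 8.67% on day 3. The proteins AT5G39850, an S4 type with 91.8 FPKM at day 3 and 2.57 at day 0, and AT3G09680, an S12/S23 type with 27.8 FPKM at day 3 and 1.51 at day 0, had the largest ratios among those with a level above 0 in both groups. 3 of those that fell, led by AT1G53560 with 10.5 FPKM at day 3 and 155 at day 0, carry the name L18ae family. Of 48 aminoacyl-tRNA synthetases, which charge tRNAs with amino acids, 18 rose and 2 fell, and EMB1030, an alanyl type, had 39.8 FPKM at day 3 and 0.991 at day 0. Their summed level was 1894 FPKM at day 3 against 2464 FPKM at day 0, or 0.255% and 0.266% of all FPKM, so it did not follow the count of calls. Of 38 genes with proteasome in their name, 21 rose and none fell, with small ratios (median log2 ratio 0.92). The AAA-ATPase subunit RPT5B had 50.6 FPKM at day 3 and 15.8 at day 0 and the alpha subunit PAB1 166 FPKM at day 3 and 52.6 at day 0.

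Genes that respond to a lack of sugar mostly fell. Of 9 tested members, 8 fell and 1 rose (median log2 ratio -2.21). DIN10, a raffinose synthase, had 15.8 FPKM at day 3 and 231 at day 0, and ASN1, the asparagine synthetase of dark-kept tissue, had 20.9 FPKM at day 3 and 231 at day 0. TPS8, a trehalose phosphate synthase, had 10.6 FPKM at day 3 and 90.2 at day 0, and KMD4, an F-box protein, had 1.99 FPKM at day 3 and 39.9 at day 0. DIN1 had 11.9 FPKM at day 3 and 55.2 at day 0. DIN2, a beta-glucosidase of the same response, rose, with 521 FPKM at day 3 and 226 at day 0. Of 11 tested enzymes of amino acid breakdown, 6 fell and none rose. GDH2, glutamate dehydrogenase, had 631 FPKM at day 3 and 2179.7 at day 0, and PDH1, which degrades proline, had 184 FPKM at day 3 and 647 at day 0. DIN3, of branched-chain amino acid breakdown, had 6.81 FPKM at day 3 and 35.4 at day 0, MCCA, a subunit of methylcrotonyl-CoA carboxylase, 7.14 FPKM at day 3 and 41.0 at day 0, and D2HGDH 1.61 FPKM at day 3 and 9.21 at day 0. The breakdown genes summed to 1493 FPKM in isolated cells, 3003 FPKM at day 0, 1892 FPKM at day 1 and 889.8 FPKM at day 3, with the highest sum at day 0. The sugar starvation genes summed to 633 FPKM in isolated cells, 1197 FPKM at day 0, 1349 FPKM at day 1 and 675 FPKM at day 3, with the highest sum at day 1. DIN2 held 521 of the 675 FPKM at day 3. On a log2(FPKM + 1) scale the median member was highest at day 0, with 6.51, against 6.07 at day 1 and 4.07 at day 3.

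In 3 lists of central carbon metabolism, rises were rarer than the 21.0% of all genes, and falls were near or above the 21.2%. Of 14 glycolysis genes, 2 rose and 3 fell, with a median log2 ratio of -0.13 that turned positive after rescaling to TPM (0.19) and after quantile scaling (0.31). GAPC1, a cytosolic glyceraldehyde phosphate dehydrogenase, had 2362 FPKM at day 3 and 862 at day 0, and PFK3, a phosphofructokinase, had 30.1 FPKM at day 3 and 8.04 at day 0. HXK1, the hexokinase that also senses glucose, had 29.8 FPKM at day 3 and 89.2 at day 0, and HXK2 8.58 FPKM at day 3 and 18.1 at day 0. None of the 10 tested genes of the TCA cycle rose and 2 fell, among them mMDH2, a malate dehydrogenase, with 28.5 FPKM at day 3 and 65.1 at day 0. None of the 18 genes of beta-oxidation and the glyoxylate cycle rose and 5 fell. CSY2, the peroxisomal citrate synthase, had 36.1 FPKM at day 3 and 115 at day 0, and the acyl-CoA oxidases ACX1, ACX3 and ACX4 had 156 FPKM at day 3 and 388 at day 0 (ACX1), 31.3 FPKM at day 3 and 85.6 at day 0 (ACX3) and 47.0 FPKM at day 3 and 128 at day 0 (ACX4). SDP1, which releases fatty acids from stored oil, had 21.6 FPKM at day 3 and 39.6 at day 0. ICL, isocitrate lyase, had 17.2 FPKM at day 3 and 25.7 at day 0 and did not pass.

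Hypoxia genes rose in 5 of 13 cases and fell in 1, against 21.0% and 21.2% of all genes. PDC1, pyruvate decarboxylase of fermentation, had 115 FPKM at day 3 and 39.7 at day 0, HB1, a haemoglobin, 62.9 FPKM at day 3 and 24.6 at day 0, and PCO2, an oxygen-sensing oxidase, 9.85 FPKM at day 3 and 1.28 at day 0. The sucrose synthases divided, SUS4 with 8.69 FPKM at day 3 and 1.85 at day 0 and SUS1 with 13.4 FPKM at day 3 and 33.4 at day 0. ADH1, the alcohol dehydrogenase that follows PDC1, had 108 FPKM at day 3 and 89.5 at day 0 and did not pass. Of 15 autophagy genes 2 rose and 2 fell, both shares below the 21.0% and 21.2% of all genes, and 11 did not pass. Among those that passed, 3 were paralogues of ATG8, the protein that tags the autophagosome membrane. ATG8B had 158 FPKM at day 3 and 29.5 at day 0, and ATG8G 62.7 FPKM at day 3 and 13.9 at day 0. ATG8E had 137 FPKM at day 3 and 419.9 at day 0.

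The shares of nitrogen and phosphate genes that passed were near the 21.0% and 21.2% of all genes. Of 17 tested nitrogen genes 4 rose and 4 fell, with a median (-0.25) that turned positive after rescaling to TPM (0.07) and quantile scaling (0.06). The nitrate-responsive regulators LBD39 and LBD37 had 47.1 FPKM at day 3 and 4.59 at day 0 (LBD39) and 21.1 FPKM at day 3 and 100.7 at day 0 (LBD37). GLN2, the plastid glutamine synthetase, had 10.1 FPKM at day 3 and 65.1 at day 0, and NIA1, a nitrate reductase, had 12.8 FPKM at day 3 and 37.3 at day 0, while ASN2 had 23.7 FPKM at day 3 and 6.76 at day 0. Of 16 phosphate genes 3 rose and 3 fell. PHO2, which degrades phosphate exporters, had 25.3 FPKM at day 3 and 2.99 at day 0, and the transporter PHT1;4 29.9 FPKM at day 3 and 11.3 at day 0. RNS1, a ribonuclease of starved and wounded tissue, had 36.7 FPKM at day 3 and 275 at day 0, PPCK1 18.19 FPKM at day 3 and 59.3 at day 0 and the phosphatase gene PS2 14.6 FPKM at day 3 and 55.5 at day 0. Of 10 tested sulfur genes 3 rose and 4 fell. APR1, APR2 and APR3, which reduce sulfate, had 391.8 FPKM at day 3 and 1812 at day 0 (APR1), 244 FPKM at day 3 and 624 at day 0 (APR2) and 634 FPKM at day 3 and 2063 at day 0 (APR3) and fell. BGLU28, a glucosidase of sulfur-starved tissue, had 366 FPKM at day 3 and 96.4 at day 0 and ATSDI1 54.0 FPKM at day 3 and 17.57 at day 0, and both rose. In the iron list, the deficiency regulators BHLH038 and BHLH039 had 17.2 FPKM at day 3 and 0.799 at day 0 (BHLH038) and 47.6 FPKM at day 3 and 5.52 at day 0 (BHLH039), and OPT3, a phloem iron transporter, 41.6 FPKM at day 3 and 6.34 at day 0. The iron store FER1, a ferritin, had 23.3 FPKM at day 3 and 188 at day 0, and FRU, a root regulator of iron uptake, 1.70 FPKM at day 3 and 20.21 at day 0. Hence in this list 3 of 11 rose and 5 of 11 fell.

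Cell wall genes also divided by family. Of 9 tested genes of primary wall cellulose, 7 fell and none rose. The synthase subunits CESA1, CESA5 and CESA6 had 37.0 FPKM at day 3 and 81.7 at day 0 (CESA1), 3.03 FPKM at day 3 and 9.90 at day 0 (CESA5) and 23.4 FPKM at day 3 and 70.2 at day 0 (CESA6), CESA2 1.99 FPKM at day 3 and 12.6 at day 0, and CTL1, a chitinase-like protein needed for cellulose, 56.9 FPKM at day 3 and 296 at day 0. Of 27 wall loosening genes 8 rose and 13 fell. The xyloglucan-cutting enzymes XTH14, XTH15, XTH17 and XTH19 had 3.33 FPKM at day 3 and 92.0 at day 0 (XTH14), 3.08 FPKM at day 3 and 113 at day 0 (XTH15), 3.58 FPKM at day 3 and 73.4 at day 0 (XTH17) and 10.5 FPKM at day 3 and 309 at day 0 (XTH19). Expansins, which loosen walls without cutting them, went both ways: EXPA11 had 0.357 FPKM at day 3 and 23.56 at day 0 and EXPA17 5.05 FPKM at day 3 and 83.2 at day 0, whereas EXPA4 had 475 FPKM at day 3 and 44.2 at day 0, EXPA10 61.1 FPKM at day 3 and 3.33 at day 0 and EXPA1 326 FPKM at day 3 and 137 at day 0. Of 21 tested genes named expansin, 7 rose and 7 fell, against 3 and 13 of 22 XTH genes. Summed expansin levels were higher at day 3, 1071 FPKM against 647 FPKM at day 0, and summed XTH levels lower, 600.4 FPKM against 1565 FPKM.

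Members of other wall protein families, and aquaporins, fell more often than they rose. Of 43 arabinogalactan proteins, heavily glycosylated proteins of the cell surface, 25 fell and 1 rose. AGP14 had 186 FPKM at day 3 and 2105 at day 0 and AGP31 12.996 FPKM at day 3 and 319 at day 0, and AGP27, the member that rose, 22.2 FPKM at day 3 and 2.495 at day 0. Of 96 genes with pectin in their reference name, 46 fell and 14 rose. Among those that rose was AT1G62770, named as an invertase or pectin methylesterase inhibitor, with 194 FPKM at day 3 and 2.69 at day 0. Of 54 genes with peroxidase family names, 22 fell and 13 rose, and the extremes were abundant: RCI3 had 6.97 FPKM at day 3 and 307 at day 0, while PRXCB had 1671 FPKM at day 3 and 31.0 at day 0. DOX1, an alpha-dioxygenase that the reference names with this family, had 1005 FPKM at day 3 and 43.7 at day 0. The peroxidase family summed to 5198 FPKM at day 3 against 4237 FPKM at day 0, so its sum did not follow the count of calls. Aquaporins, the water channels of membranes, fell in 17 of 23 cases and rose in 3 (median log2 ratio -3.13). GAMMA-TIP, a channel of the vacuole, had 96.1 FPKM at day 3 and 1359.9 at day 0, PIP2A, of the plasma membrane, 80.5 FPKM at day 3 and 985 at day 0, and TIP2;3 25.1 FPKM at day 3 and 548 at day 0, while PIP2;5 rose, with 19.9 FPKM at day 3 and 0.646 at day 0.

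Jasmonate genes had the lowest median of the 43 lists with tested members. Of 22 tested members 20 fell and 1 rose (median log2 ratio -3.67). The repressors JAZ9 and JAZ10 had 1.4995 FPKM at day 3 and 77.7 at day 0 (JAZ9) and 5.08 FPKM at day 3 and 158 at day 0 (JAZ10), and ORA47, an early activator of jasmonate synthesis, 0.394 FPKM at day 3 and 15.2 at day 0. The cyclases AOC2 and AOC3, which form the jasmonate ring, had 5.35 FPKM at day 3 and 126 at day 0 (AOC2) and 17.3 FPKM at day 3 and 409 at day 0 (AOC3). MYC2, the central transcription factor, had 5.14 FPKM at day 3 and 79.8 at day 0. JAZ12 had 86.8 FPKM at day 3 and 122 at day 0 and did not pass. VSP1, a stored acid phosphatase induced by jasmonate in leaves, was the member that rose, with 10.7 FPKM at day 3 and 1.68 at day 0. On a log2(FPKM + 1) scale the median member stood at 6.35 at day 0, 4.04 at day 1 and 2.92 at day 3.

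**Figure D3:**
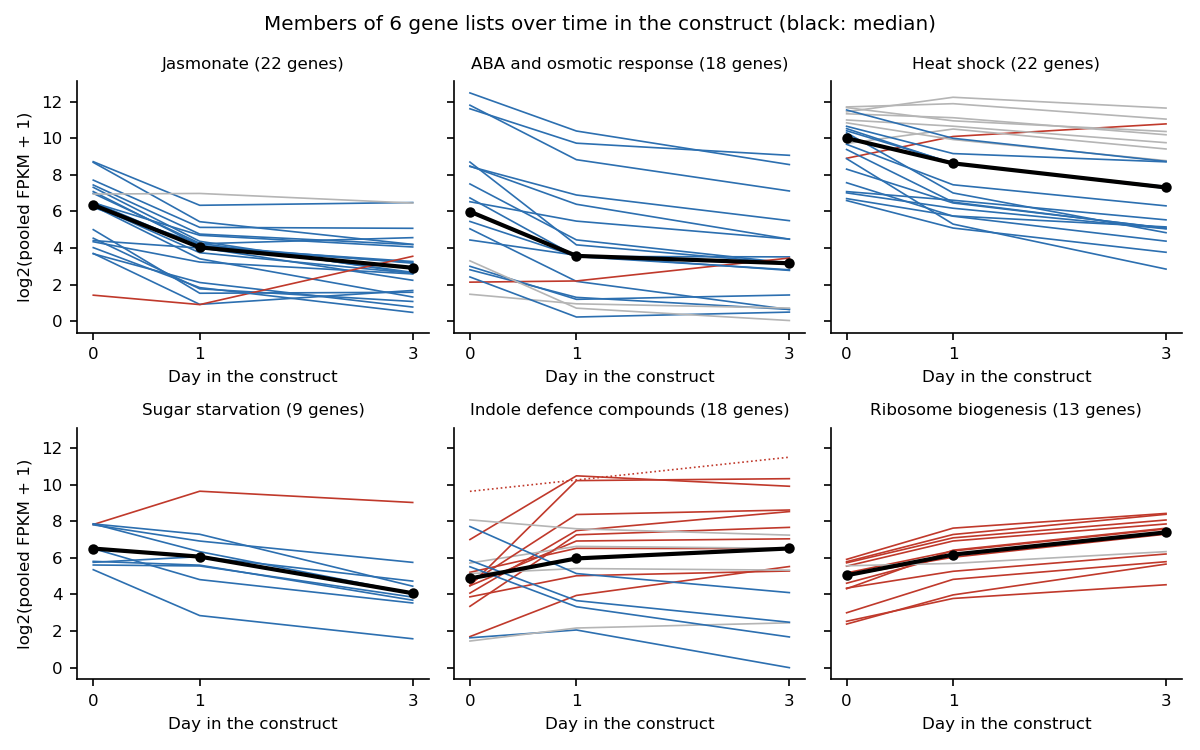
Levels of tested members of 6 lists over the days in the construct (x axis, days 0, 1 and 3; y axis, log2 of pooled FPKM + 1), with red lines for genes called higher at day 3 than day 0, blue for called lower, grey for the rest and black for the median of the list. The medians of the jasmonate, ABA and heat shock lists are lower at each later day, those of ribosome biogenesis and indole compounds higher, and the dotted line of PYK10 skips day 1, where it is listed at 0 and still counted in the median.

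In the list of abscisic acid and osmotic genes, 15 of 18 tested members fell and 1 rose (median log2 ratio -3.41). NCED3, the rate-limiting enzyme of abscisic acid synthesis, had 0.557 FPKM at day 3 and 32.1 at day 0 (log2 ratio -5.85). RD29A, a marker of drought and cold, had 7.89 FPKM at day 3 and 414 at day 0, and the dehydrins RAB18 and ERD10, which protect drying cells, had 8.05 FPKM at day 3 and 180.1 at day 0 (RAB18) and 138 FPKM at day 3 and 3579.9 at day 0 (ERD10). P5CS1, which makes proline, had 6.01 FPKM at day 3 and 106 at day 0. COR47, another dehydrin, had 377 FPKM at day 3 and 5701 at day 0, the highest level of any single-gene entry on day 0, and was listed at 0 in isolated cells. HAI2, a phosphatase that damps the hormone's signal, rose, with 9.93 FPKM at day 3 and 3.39 at day 0. Of 65 genes with late embryogenesis abundant or dehydrin in their name, 31 fell and 7 rose. Their share of all FPKM was 0.850% at day 3 and 2.81% at day 0.

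Of 22 heat shock genes, 14 fell and 1 rose (median log2 ratio -2.04). HSFA2, the heat shock factor that keeps the response going, had 27.6 FPKM at day 3 and 1257 at day 0 (log2 ratio -5.51), and BAG6, a co-chaperone, had 32.5 FPKM at day 3 and 667 at day 0. ROF2, which regulates HSFA2, had 33.0 FPKM at day 3 and 316 at day 0, and HSP23.6-MITO, a mitochondrial small heat shock protein, 78.0 FPKM at day 3 and 812 at day 0. The small chaperone HSP18.2 rose, with 1762 FPKM at day 3 and 478 at day 0, and HSP17.4, with 3209 FPKM at day 3 and 2786 at day 0, did not pass. HSFA7A and HSFA2 thus had larger falls than the chaperones named here. The list summed to 6513 FPKM in isolated cells, 28785 FPKM at day 0, 21164 FPKM at day 1 and 13031 FPKM at day 3, so the sum at day 3 lay below day 0 and above isolated cells. Its median member, on a log2(FPKM + 1) scale, was 7.31 at day 3 and 7.34 in isolated cells.

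Defence genes divided by pathway. Of 11 tested immune genes 7 fell and 2 rose. WRKY40 and WRKY46, early immune transcription factors, had 5.33 FPKM at day 3 and 219.8 at day 0 (WRKY40) and 0.478 FPKM at day 3 and 21.2 at day 0 (WRKY46), WRKY30 0.418 FPKM at day 3 and 7.43 at day 0 and PAD4, an immune regulator, 2.14 FPKM at day 3 and 9.46 at day 0. CYP82C2, an enzyme of indole defence compounds, rose, with 33.1 FPKM at day 3 and 0.726 at day 0, as did NHL10, with 488 FPKM at day 3 and 181 at day 0. PR1 and PR2, markers of salicylic acid, were listed at 0 in both groups. Among all 52 tested WRKY factors 22 fell and 8 rose, and WRKY23, known from auxin-dependent root development, had 155 FPKM at day 3 and 21.1 at day 0.

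The synthesis of indole glucosinolates and camalexin, defence compounds made from tryptophan, held 10 genes that rose and 4 that fell among 18 tested (median log2 ratio 1.48). CYP79B2 and CYP79B3, which open both pathways, had 369 FPKM at day 3 and 15.9 at day 0 (CYP79B2) and 45.2 FPKM at day 3 and 2.24 at day 0 (CYP79B3). CYP71A12, a camalexin enzyme, had 1287 FPKM at day 3 and 21.3 at day 0, and PAD3, which completes camalexin, had 392.03 FPKM at day 3 and 23.3 at day 0. CYP81F2, which modifies indole glucosinolates, had 203 FPKM at day 3 and 9.22 at day 0. The genes that fell included the myrosinases TGG4 and TGG5, which break glucosinolates down, with 4.59 FPKM at day 3 and 57.4 at day 0 (TGG4) and 2.202 FPKM at day 3 and 44.8 at day 0 (TGG5), and the glucosidase BGLU21 with 16.2 FPKM at day 3 and 209.6 at day 0. PYK10, a glucosidase of ER bodies, rose, with 2906 FPKM at day 3 and 796 at day 0, and was listed at 0 on day 1. MYB34, an activator of the pathway, was listed at 0 on day 3 and had 2.101 FPKM on day 0. With such genes placed at the end of the order, the median was 1.42. TI1, a trypsin inhibitor, was the most abundant gene at day 3, with 6161 FPKM at day 3 and 279 at day 0. GSTF6 and GSTF7, near-identical glutathione transferases whose reads may be shared, had 2755 FPKM at day 3 and 289 at day 0 (GSTF6) and 2922 FPKM at day 3 and 194 at day 0 (GSTF7), whereas GSTU5, the tau class gene with the highest day 0 level among those that fell, had 385 FPKM at day 3 and 4081 at day 0.

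Of 15 phenylpropanoid genes 6 fell and 1 rose. PAL1 and PAL2, which take the first step of the pathway, had 86.2 FPKM at day 3 and 287 at day 0 (PAL1) and 38.6 FPKM at day 3 and 149 at day 0 (PAL2). CAD4, of lignin precursor synthesis, had 47.5 FPKM at day 3 and 167 at day 0, CCR2 27.6 FPKM at day 3 and 80.3 at day 0 and OMT1 86.6 FPKM at day 3 and 232 at day 0. HCT, an acyltransferase of the same route, rose, with 241 FPKM at day 3 and 124 at day 0. The median of -0.47 turned to 0.03 under quantile scaling. Of 7 tested flavonoid genes 5 fell and none rose, with 0.988 FPKM at day 3 and 17.2 at day 0 for the regulator MYB12, 5.74 FPKM at day 3 and 44.1 at day 0 for F3H and 5.81 FPKM at day 3 and 31.8 at day 0 for FLS1, which are enzymes of flavonol synthesis. TT4, chalcone synthase, had 24.8 FPKM at day 3 and 126 at day 0, and 4CL3 1.71 FPKM at day 3 and 6.53 at day 0.

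Auxin genes divided evenly, 8 higher and 7 lower of 23, with a median log2 ratio of 0.02 that turned to -0.04 under median-ratio scaling. Of the auxin exporters, PIN7 rose, with 64.1 FPKM at day 3 and 6.34 at day 0, while PIN2, of the epidermis and cortex, fell, with 4.03 FPKM at day 3 and 38.6 at day 0. GH3.3, which conjugates auxin, had 533 FPKM at day 3 and 42.2 at day 0. The repressor IAA7 had 7.26 FPKM at day 3 and 151 at day 0 and IAA17 31.0 FPKM at day 3 and 228 at day 0, whereas IAA13 had 265 FPKM at day 3 and 107 at day 0. Of 9 tested cytokinin genes, 2 rose and 1 fell, against 21.0% and 21.2% of all genes. CKX5, a cytokinin oxidase, rose, with 20.5 FPKM at day 3 and 1.65 at day 0. ARR9 also rose, with 43.0 FPKM at day 3 and 19.1 at day 0. ARR3 fell, with 2.57 FPKM at day 3 and 17.0 at day 0. The other 6 did not pass, among them ARR5, a response regulator, with 84.7 FPKM at day 3 and 86.4 at day 0.

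Of 20 genes of oxidative stress 4 rose and 5 fell, against 21.0% and 21.2% of all genes. CAT2, a catalase, had 41.9 FPKM at day 3 and 131 at day 0, FSD1, an iron superoxide dismutase, 10.8 FPKM at day 3 and 40.0 at day 0, and CSD2, its copper and zinc counterpart, 140.2 FPKM at day 3 and 45.9 at day 0. OM66, a stress protein of the mitochondrial outer membrane, had 11.3 FPKM at day 3 and 45.0 at day 0, and AT2G21640 41.3 FPKM at day 3 and 9.35 at day 0. AOX1A, the alternative oxidase, had 307 FPKM at day 3 and 225 at day 0 and did not pass. Chlorophyll synthesis genes fell in 5 of 10 cases, led by HEMA2, a glutamyl-tRNA reductase that also serves haem synthesis in roots, with 27.7 FPKM at day 3 and 159.5 at day 0. HEMA1 had 19.7 FPKM at day 3 and 46.5 at day 0, GSA1 27.2 FPKM at day 3 and 51.4 at day 0 and CAO 2.18 FPKM at day 3 and 5.42 at day 0. Of 6 tested senescence genes 1 rose and 2 fell, against 21.0% and 21.2% of all genes. SAG21, with 238 FPKM at day 3 and 1946 at day 0, and NAP, with 3.12 FPKM at day 3 and 17.9 at day 0, fell. SGR1, which starts chlorophyll breakdown, rose, with 13.7 FPKM at day 3 and 3.16 at day 0. SAG12 was listed at 0 in both groups.

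**Figure D4:**
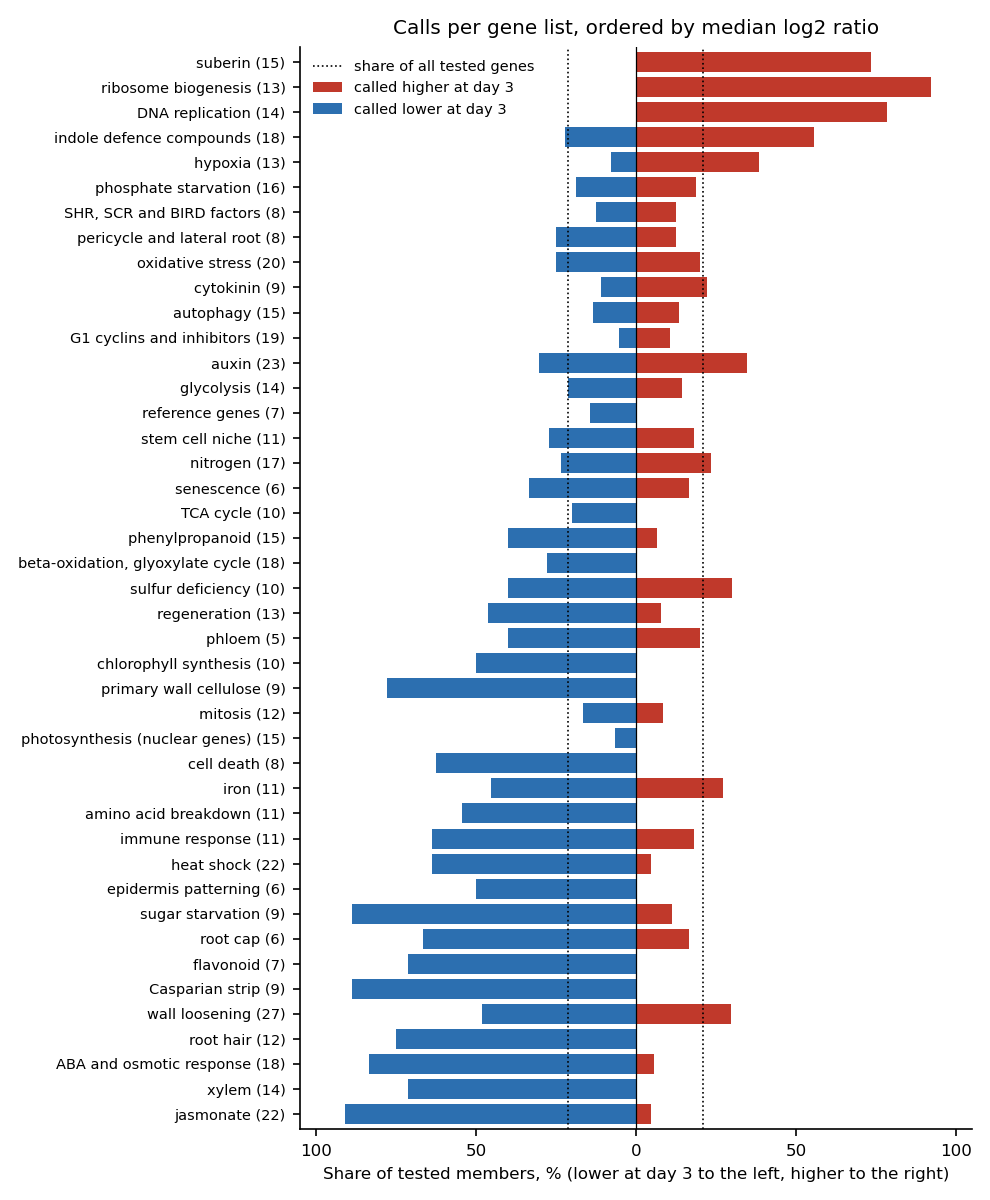
For each gene list (number of tested members in brackets), bars show the share of tested members called higher at day 3 (red, right) and lower (blue, left) in percent, and dotted lines mark the 21.0% and 21.2% of all tested genes. Lists run by median log2 ratio, with suberin at the top and jasmonate at the bottom.

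Of 7 genes often used as references, 6 did not pass. PP2AA3, a phosphatase subunit, had 32.1 FPKM at day 3 and 32.8 at day 0, UBC21, a ubiquitin-conjugating enzyme, 40.9 FPKM at day 3 and 40.7 at day 0, and YLS8 295 FPKM at day 3 and 363 at day 0. UBQ10, a ubiquitin gene, had 1556 FPKM at day 3 and 2599.7 at day 0, and ACT2, an actin, fell, with 90.6 FPKM at day 3 and 463 at day 0 (log2 ratio -2.35). The median of the 7, -0.17, turned to 0.16 after rescaling to TPM and to 0.00251 under quantile scaling.

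Per library, the deposited values allow only coarse measures, because a line of that table does not hold the same gene in every library. Across lines, on a log2(FPKM + 1) scale, the 2 day 3 libraries had a Pearson correlation of 0.228. The median for a day 3 with a day 0 library was 0.2511. Across means of 500 neighbouring lines on that scale (67 blocks), the day 3 pair had 0.9987. Day 3 with day 0 libraries had 0.9946 to 0.996 across these means. The correlations describe the table and are no test. Summed FPKM was 709225 and 808178 in the day 3 libraries, against 750320, 773486 and 742622 in the day 0 libraries. The means were 758701 ± 69970 (SD, n = 2) at day 3 and 755476 ± 16065 (SD, n = 3) at day 0, so the libraries do not show the difference between the pooled sums. The pooled day 3 sum of 741440 lay between its libraries, while the pooled day 0 sum of 927340 lay above all 3 of its libraries. How the pooled values were made is not given in the sources, and what this does to the pooled ratios was not tested. The 10 highest lines held 6.08% and 6.41% of FPKM at day 3, against 5.40%, 4.86% and 4.64% at day 0, and the groups did not overlap. In the pooled columns, the 100 highest entries held 21.9% of FPKM at day 3 and 24.2% at day 0. The number of entries differs from the 10 lines, so these shares cannot be set against those of the libraries. Lines named for organelle genes held 1.14% and 2.92% at day 3, against 2.103%, 1.48% and 0.470% at day 0, and the groups overlapped. Lines at an FPKM of 1 or more numbered 16157 and 16783 at day 3, against 15788, 16222 and 16403 at day 0. With 2 against 3 libraries the two-sided exact permutation test cannot go below p = 0.2, which the 10 highest lines gave (adjusted p = 0.8 over 4 measures), and the other 3 measures gave p between 0.6 and 1.

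**Figure D5:**
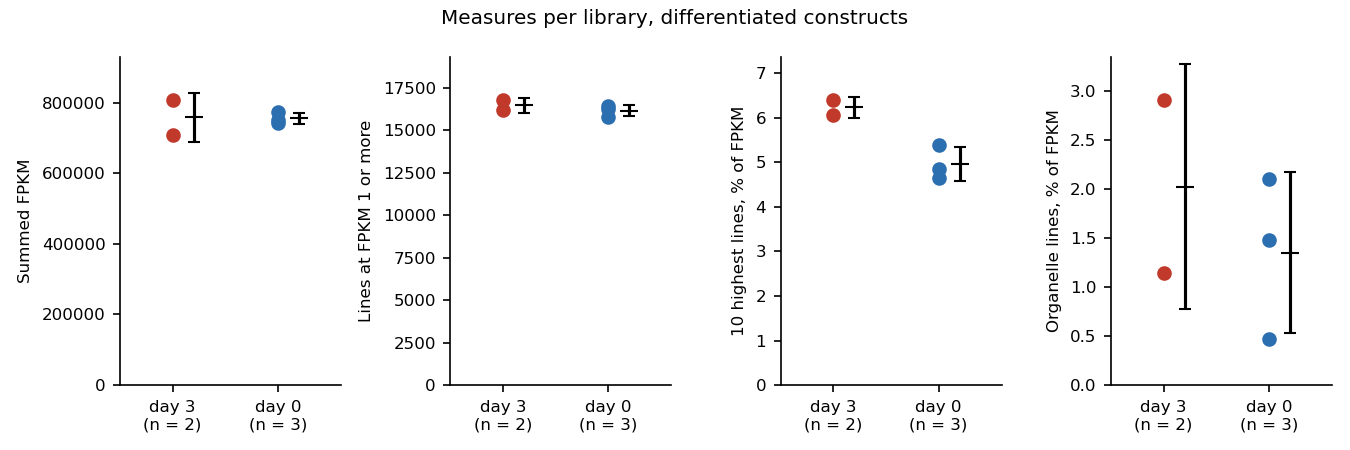
Points are single libraries of differentiated constructs at day 3 (red, left, n = 2) and day 0 (blue, right, n = 3), with the mean and SD beside them in black, for 4 measures whose y axes start at 0. The day 3 libraries lie above all day 0 libraries in the share of FPKM held by the 10 highest lines, and in the other 3 measures the groups overlap.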

How the data were processed

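RNA was poly(A)-selected and sequenced as directional, paired-end libraries, per the labels' protocols. Reads were processed with HISAT2 and Cufflinks, per the submitters' processing notes; for versions, genome build and strand setting, the sources used here name none. The authors deposited FPKM per library and as 1 pooled value per group, the log2 ratio of the groups, and a q-value per gene and comparison. FPKM holds no read counts, so the depth is unknown. Ratios were recomputed from the pooled FPKM deposited by the authors, for entries at 1 FPKM or more in either group. A gene passed at a deposited q-value under 0.05. The planned test on library values was not run, because lines of the library table do not hold the same gene in each library. Without it, the q-values could not be checked against the spread between libraries, which may be technical.

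Gene names came from the TAIR10.1 annotation by gene ID (32218 of 32919 single IDs matched), and no coordinates or sequences were used. Near-identical copies, such as the AOC, GSTF and XTH genes, may share reads. Members, lists and families were chosen with earlier results of these data known. Named genes are the 12 highest and 12 lowest ratios among genes that passed, have a symbol and reach 10 FPKM, the 4 highest listed at 0 in each group, and up to 5 members of each list that passed with 5 FPKM or more; others were chosen after their values were seen. Library measures were compared with a two-sided exact permutation test and Benjamini-Hochberg adjustment. Alternatives were other scalings, a pseudocount of 1, other filters and leaving out libraries. Python 3.11.15, pandas 2.3.3, NumPy 2.4.6 and SciPy 1.17.1 were used, and the fold and list steps were tested on simulated data. Some named members of the lists are not reported here.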

Additional observations from a re-analysis of the deposited data

How the results depend on the processing

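Over 4 other scalings or pseudocounts, 163 medians of gene lists kept their direction and 9 reversed. After rescaling to TPM, that is, to equal column sums,, the reversed medians were 0.15 for stem cell niche, 0.19 for glycolysis, 0.0699 for nitrogen and 0.16 for reference genes. Under quantile scaling they were 0.31 for glycolysis, 0.0579 for nitrogen, 0.0344 for phenylpropanoid and 0.00251 for reference genes, and under median-ratio scaling -0.0399 for auxin. Without a filter on low values, 7604 genes were at least 2-fold lower and 6365 higher, against 4909 and 4849 with it. By construction, the added genes are those under 1 FPKM in both groups. Genes called by the deposited q stayed within 1.5 times under each filter tried.

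Leaving out each library in turn gave differences, day 3 minus day 0, of -46251 to 52702 in summed FPKM, 19.3 to 645 in lines at 1 FPKM or more, 1.11 to 1.49 percentage points in the 10 highest lines and -0.212 to 1.56 percentage points in organelle lines. Summed FPKM and organelle lines changed sign without day 3 replicate 2, and summed FPKM also without day 0 replicate 3 (-3201.5). With a replicate block, pairing numbers 1 and 2 (chosen after seeing the data), the differences were -3201.5, 465, 1.12 and 0.235 in the same order. No paired analysis was possible for gene calls because the pooled columns carry no replicates, and leaving out a library was not possible there either. The planned tests on windows of lines were not run: only 20 genes held 80% or more of their window of 51 lines. Over these 20 genes, the day 3 minus day 0 difference was taken from library windows and from pooled values, both on a log2(FPKM + 1) scale. Their Pearson correlation was 0.166, so the windows matched the pooled changes poorly. The reason was not tested.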

Other observations

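Among genes above 0 FPKM in both groups, 528 were at least 16-fold apart and reached 10 FPKM in the higher group. Of these, 80 did not pass the test of the authors' deposited table, 42 of them higher at day 3 and 38 lower. In 35 of the 80 the lower group was under 0.1 FPKM. Among those higher at day 3 were BHLH100, a regulator of the iron deficiency response, with 17.5 FPKM at day 3 and 0.124 at day 0, and FAR4 with 18.4 FPKM at day 3 and 0.0869 at day 0. Among those lower were EXPA12, an expansin, with 0.0217 FPKM at day 3 and 14.2 at day 0, XTH21 with 0.0213 FPKM at day 3 and 13.9 at day 0, and RGF3, a peptide known from the root meristem, with 0.0737 FPKM at day 3 and 12.3 at day 0. These genes were chosen after their values were seen.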
